A study of Mus musculus with 19 samples.

Results

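The IL-2 reporter was followed as a main effect over both lineages of CD4 T cells: 9 arrays of GFP+ cells were set against 10 arrays of GFP- cells, with the state of a Foxp3 reporter (RFP) as a covariate. All 19 arrays of the study entered. The tested populations were GFP+RFP+ (4 arrays, replicates 1, 3, 4 and 5) and GFP+RFP- (5 arrays). The GFP- populations were GFP-RFP+ (5 arrays) and GFP-RFP- (5 arrays). Every sample came from adult female mice on a C57Bl/6 background that carried both the IL-2-GFP transgene and FOXP3mRFP, and the tissue was spleen and lymph nodes. No stimulation or drug is named in the labels, and neither are the sequences that drive the GFP or the number of animals behind a sample. Each p-value below is thus set against the variation among these particular samples, part or all of which could be technical. A tag for cell type calls all samples conventional, while source names and subtypes call the RFP+ ones regulatory, so the populations are named here by colour.

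Interleukin-2 is the growth factor that activated CD4 T cells secrete, and Il2 transcription needs calcium-driven NFAT together with AP-1 and NF-kappaB family factors. IL-2 acts through a receptor whose chains activate JAK kinases and STAT5. Foxp3 is the transcription factor of regulatory T cells, which depend on IL-2 made by other cells and in which Foxp3 represses Il2. Comparing GFP+ with GFP- cells across both RFP states asks which transcripts accompany IL-2 reporter activity whatever the lineage.

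The probes behind the main observations are printed 5′ to 3′ as deposited, in lower case, with their mm9 positions. They are Il2 at chr3:37020012-37020071 on the minus strand, both probes of Zdhhc2 (chr8:41570765-41570824 for the brighter and chr8:41569726-41569785 for the dimmer, plus strand), Numa1 at chr7:109163380-109163439 on the plus strand and Tle3 at chr9:61266180-61266239 on the plus strand. Il2 is shown because it is the reported gene, the next 3 genes because they carried the smallest p-values or, for Tle3, the smallest standard error among the genes with the smallest p. The Zdhhc2 probes start 1039 bases apart and share no overlap, so each measures a separate stretch. Each is 60 bases long, with a GC content of 43.3% for Il2, 45% and 35% for the brighter and dimmer Zdhhc2 probes, 43.3% for Numa1 and 41.7% for Tle3. Exons were not assigned to these positions.
Il2: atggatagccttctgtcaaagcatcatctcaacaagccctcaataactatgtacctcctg
Zdhhc2 (brighter): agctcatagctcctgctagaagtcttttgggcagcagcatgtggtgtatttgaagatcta
Zdhhc2 (dimmer): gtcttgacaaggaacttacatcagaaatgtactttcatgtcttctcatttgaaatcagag
Numa1: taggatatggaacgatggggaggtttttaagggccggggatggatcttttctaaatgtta
Tle3: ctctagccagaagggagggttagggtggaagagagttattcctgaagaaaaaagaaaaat

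No difference in array signal between the reporter states was detected. On GFP+ arrays 34.8% ± 4.94 (SD, n = 9) of probes were called well above background, and on GFP- arrays 35.1% ± 7.59 (SD, n = 10; difference -0.742 points, two-sided exact permutation of GFP labels within RFP state, p = 0.753). The log2 75th percentile of intensity was 13.0 ± 0.73 on GFP+ and 13.3 ± 0.77 on GFP- arrays (difference -0.28, exact permutation p = 0.156). Replicates of a population correlated at r = 0.567 to 0.777 across probes. Levels below are log2 signal relative to each array's 75th percentile, so a level of 0 is that percentile and levels near -10 are close to background. In these bulk samples fewer cells that express a gene and less RNA of it per cell cannot be told apart.

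No gene passed the test for the IL-2 reporter. limma called 0 of 20620 genes (0%) at a Benjamini-Hochberg adjusted p under 0.05, with 0.376 as the lowest adjusted p. At an unadjusted p under 0.05 there were 1042 genes (5.05%), against 1031 if no gene differed. Of these, 688 (3.34%) had a larger level in GFP+ cells and 354 (1.72%) a smaller one. No gene (0%) had GFP+ and GFP- arrays that did not overlap. An exact test on detection flags instead of levels also called 0 genes, with 221 at an unadjusted p under 0.05. Testing every probe on its own called 0 of 28101 probes, with 1381 at an unadjusted p under 0.05.

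**Figure D1:**
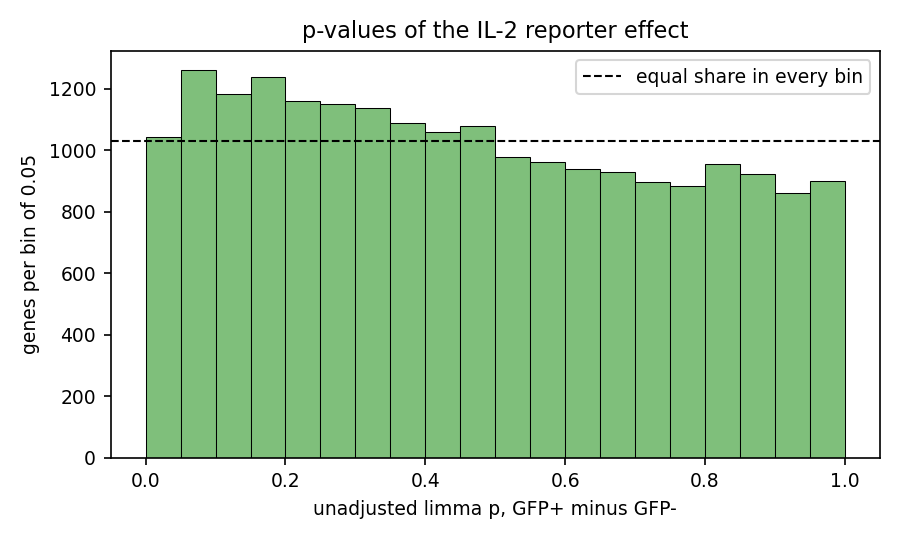
Histogram of the unadjusted limma p-values of the 20620 genes for GFP+ minus GFP- (x axis, bins of 0.05) with the number of genes per bin on the y axis; the dashed line marks 1031 genes, an equal share in every bin. The first bin holds 1042 genes and does not stand above its neighbours.

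The spread set what this design could call. The median standard error of the GFP difference was 0.75 on the log2 scale, and a lone gene with that error needed a difference of 5.10 to pass. For a gene at the lower quartile of error (0.45) the difference needed was 3.03. The 95% interval lay within 1 log2 unit of 0 for 2558 genes (12.4%). Among the 5680 genes (27.5%) well above background on all 19 arrays, it did so for 2044 (36%), and 217 of these genes (3.82%) had an unadjusted p under 0.05. That share depends on the fit. With only probes detected on all 19 arrays fitted, 366 of 5799 genes had an unadjusted p under 0.05. The RFP term of the same model called 2940 genes (14.3%). As a median over genes, GFP state took 3.03% of the sum of squares and RFP state 10.4%. Array signal was not balanced over RFP state. RFP+ arrays detected 22.0% to 39.4% of probes, with a log2 75th percentile of 11.9 to 13.52. RFP- arrays detected 30.2% to 44.9%, with 12.92 to 14.07. The part of this imbalance in the RFP values was not tested.

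Il2 itself did not separate the reporter states. Its level ran from -10.4 through a median of -9.37 to -1.51 on GFP+ arrays, against -11.8, -10.1 and -2.57 on GFP- arrays. In GFP+ cells the probe exceeded background on 1 of the 4 RFP+ arrays and 2 of the 5 RFP- arrays. In GFP- cells it did so on none of the RFP+ and 2 of the 5 RFP- arrays. The ranges overlap almost wholly, and both reporter states hold arrays with bright Il2 beside arrays at background. The difference was 1.23 ± 1.39 (SE; 95% interval -1.69 to 4.15; limma adjusted p = 0.89; two-sided exact permutation p = 0.406). The interval includes both no difference and a large excess in GFP+ cells. The difference became 0.55 without GFP+RFP- replicate 1, 0.81 without GFP+RFP- replicate 5, 0.78 without GFP-RFP- replicate 5 and 1.93 without GFP-RFP- replicate 4. Within slides 1 and 3 (8 and 5 arrays) it was 3.02 and 6.30, and within slide 2 (6 arrays) it turned to -4.95. Both GFP- arrays with Il2 above background were on slide 2. The part of the slide in the Il2 levels was not tested. Foxp3 lay between -8.41 and -5.49 on GFP+ arrays (median -7.17) and between -8.64 and 0.25 on GFP- arrays (median -7.42). The single bright Foxp3 value belonged to GFP-RFP+ replicate 3, and the GFP difference was -0.23 ± 0.79 (SE; limma adjusted p = 0.966). By this probe 7 of the 9 RFP+ arrays lay above every RFP- array (-8.50 to -6.89). The other 2 lay at -7.33, inside the RFP- range, and at -8.64, below it. Apart from the bright array, the RFP+ arrays reached -5.49 at most. These levels are relative to a log2 75th percentile that was 11.9 to 13.52 on RFP+ arrays and 12.92 to 14.07 on RFP- arrays. The part of this scaling in the Foxp3 levels was not tested.

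Zdhhc2, which encodes a DHHC-type palmitoyltransferase that attaches palmitate to membrane proteins, had the smallest p. Its brighter probe was between -1.64 and 1.39 on the 9 GFP+ arrays (median -0.82) and between -8.76 and -1.60 on the 10 GFP- arrays (median -6.67). It was well above background on 9 of 9 GFP+ and 9 of 10 GFP- arrays. GFP-RFP+ replicate 3, at -1.60, was the only GFP- array inside the GFP+ range, and the next highest was at -2.49. Replicate 3 of GFP-RFP+ is also the array with bright Foxp3. The difference was 5.16 ± 0.89 (SE; 95% interval 3.28 to 7.04; limma adjusted p = 0.376), with 4.74 in RFP- cells and 5.63 in RFP+ cells. The gene therefore missed the threshold by the rule used here.

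The dimmer Zdhhc2 probe gave a like difference. It was well above background on 7 of 9 GFP+ arrays and on 1 of 10 GFP- arrays, with levels of -10.6 to -3.77 (median -5.36) in GFP+ cells and -12.0 to -9.11 (median -11.1) in GFP- cells. The difference was 3.98 ± 0.73 (SE; limma adjusted p = 0.456 when every probe was tested). Its overlap came from GFP+RFP+ replicates 1 and 3, at -9.25 and -10.6. Over the 40 other settings and left-out arrays, the Zdhhc2 difference stayed between 4.34 and 6.06, and it passed in 3 of them: normexp background correction together with quantile normalization (4.34, limma adjusted p = 0.0423), the mean of its probes (4.57, 0.0134) and without GFP-RFP+ replicate 3 (5.67, 0.0165). Within the 3 slides, which each held both reporter states, the difference was 4.42, 5.24 and 6.06.

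**Figure D2:**
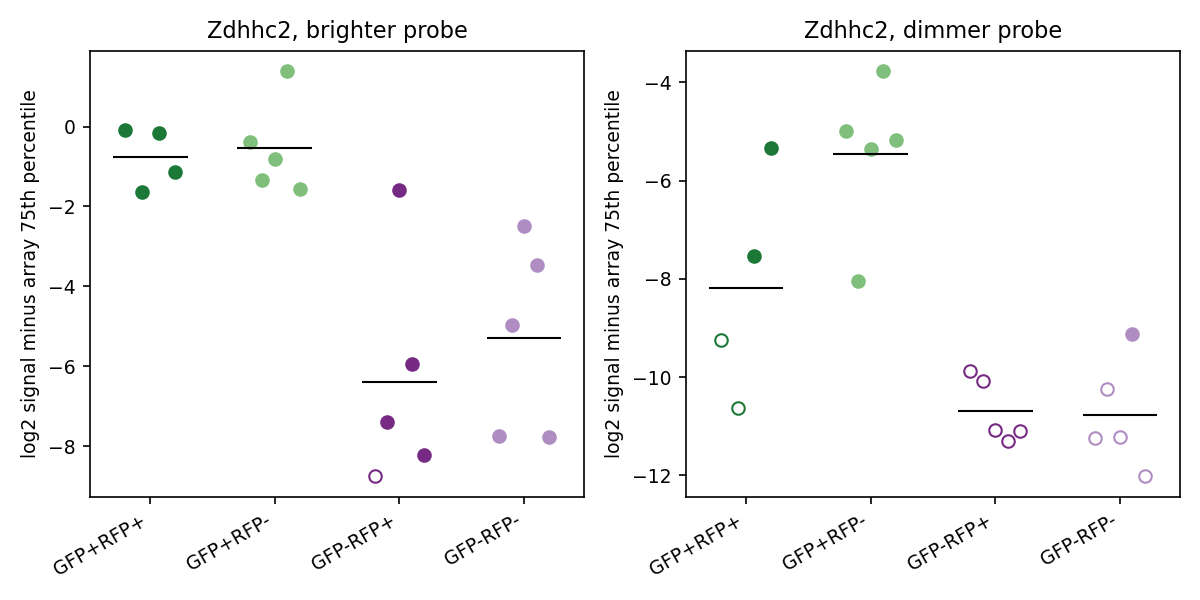
Levels of both Zdhhc2 probes (y axis, log2 signal minus the array's 75th percentile) on each array of the 4 populations (x axis); filled circles are well above background, open circles are not, and bars are population means. On the left, 9 GFP+ arrays lie at or above -1.64 and all GFP- arrays but 1 lie at or below -2.49.

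The other DHHC palmitoyltransferase genes had no common direction. This family was looked up after the Zdhhc2 values were seen. Of 14 further members tested, 7 had positive and 7 negative differences, with a median of -0.06 and a range of -3.58 (Zdhhc4) to 3.37 (Zdhhc7). None passed (limma adjusted p = 0.869 for both), and 2 had an unadjusted p under 0.05, Zdhhc7 and Zdhhc18, both positive, against 3.34% of all genes.

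Among the remaining genes with the smallest p and a positive difference, Tle3 had the tightest values. Tle3, a Groucho-family transcriptional corepressor, was well above background on all 19 arrays, at -0.23 to 1.16 (median 0.09) on GFP+ arrays and -1.55 to 0.03 (median -0.68) on GFP- arrays. The GFP+ arrays lay above every GFP- array except GFP-RFP+ replicate 4. The difference was 0.99 ± 0.25 (SE; limma adjusted p = 0.869), 0.92 in RFP- and 1.06 in RFP+ cells. The small error, not the size, placed Tle3 near the top. Over the other settings and left-out arrays its difference ran from 0.12 to 1.49. On slide 3 its levels were -0.23 and 0.07 on GFP+ arrays and -0.27, -0.26 and 0.03 on GFP- arrays.

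The others with positive differences all had a limma adjusted p of 0.869, and most were detected on only part of the arrays. Gypc, a glycophorin of the membrane skeleton, differed by 4.21 and was detected on 8 of 9 GFP+ and 4 of 10 GFP- arrays. Zfp960 and Zfp560, both zinc finger genes, differed by 2.47 and 1.52, with Zfp560 detected on 9 of 9 GFP+ and 9 of 10 GFP- arrays. For Pus3, a tRNA pseudouridine synthase, and Erich6b, no GFP- array was well above background. Their GFP+ means were at least 2.37-fold and 1.23-fold higher than the lowest level detectable there, with detection on 5 and 4 of 9 GFP+ arrays. These bounds set the dim arrays to the lowest signal called above background. A probe had to be detected on 4 or more arrays to be tested, so Pus3 and Erich6b passed this detection filter through GFP+ arrays alone. A gene detected in a single reporter state could enter only by that state, so its split is not separate support for a difference. Arl13b, a small GTPase of cilia, differed by 3.63 with one probe and by -1.16 with its second, so its probes disagree. Msl3, a subunit of a histone acetyltransferase complex, averaged 4.72 over lineages but differed in RFP+ cells alone, as given further on.

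Numa1, the nuclear mitotic apparatus protein that anchors spindle poles, had the smallest p among negative differences. It was well above background on all 19 arrays, with levels of -4.93 to -0.44 (median -2.58) in GFP+ cells and -1.48 to 0.43 (median -0.39) in GFP- cells. Only GFP+RFP- replicate 4, at -0.44, lay inside the GFP- range. The difference was -2.25 ± 0.46 (SE; limma adjusted p = 0.735), -1.73 in RFP- and -2.84 in RFP+ cells. Its lowest adjusted p under any other setting was 0.161.

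The remaining genes with negative differences did not pass the test (limma adjusted p = 0.869 each), and most were detected on a smaller share of GFP+ than of GFP- arrays. Vdac1, the channel of the outer mitochondrial membrane, was well above background on 1 of 9 GFP+ arrays (median level -9.81) and 8 of 10 GFP- arrays (median -3.59), a difference of -4.91 ± 1.13 (SE). Pold1, the catalytic subunit of DNA polymerase delta, was detected on 4 of 9 GFP+ and 10 of 10 GFP- arrays (-5.88 ± 1.51). Lsm4, part of the Lsm ring on U6 RNA, was detected on 5 of 9 GFP+ and 10 of 10 GFP- arrays (-4.79), and Nfix, a nuclear factor I transcription factor, on 2 of 9 and 8 of 10 (-4.48; -1.21 with its second probe). Napb, a SNARE-recycling protein detected on 8 of 9 GFP+ and 10 of 10 GFP- arrays, differed by -1.69. Actrt2, an actin-related protein, was above background on no GFP+ array and 4 of 10 GFP- arrays (-1.67), and so passed the detection filter through GFP- arrays alone. The at-least-fold bound of Actrt2, set as for Pus3, was 0.83, which is under 1, so no fold is bounded. Ggps1, which makes geranylgeranyl diphosphate, differed by -3.12 with its brightest probe, but its other probes gave 2.88 and 1.06 and the mean of its probes 0.27, so no direction is given. S100a8, a calcium-binding protein of myeloid cells, was detected on 5 of 9 GFP+ and 10 of 10 GFP- arrays (-5.38 ± 1.47).

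**Figure D3:**
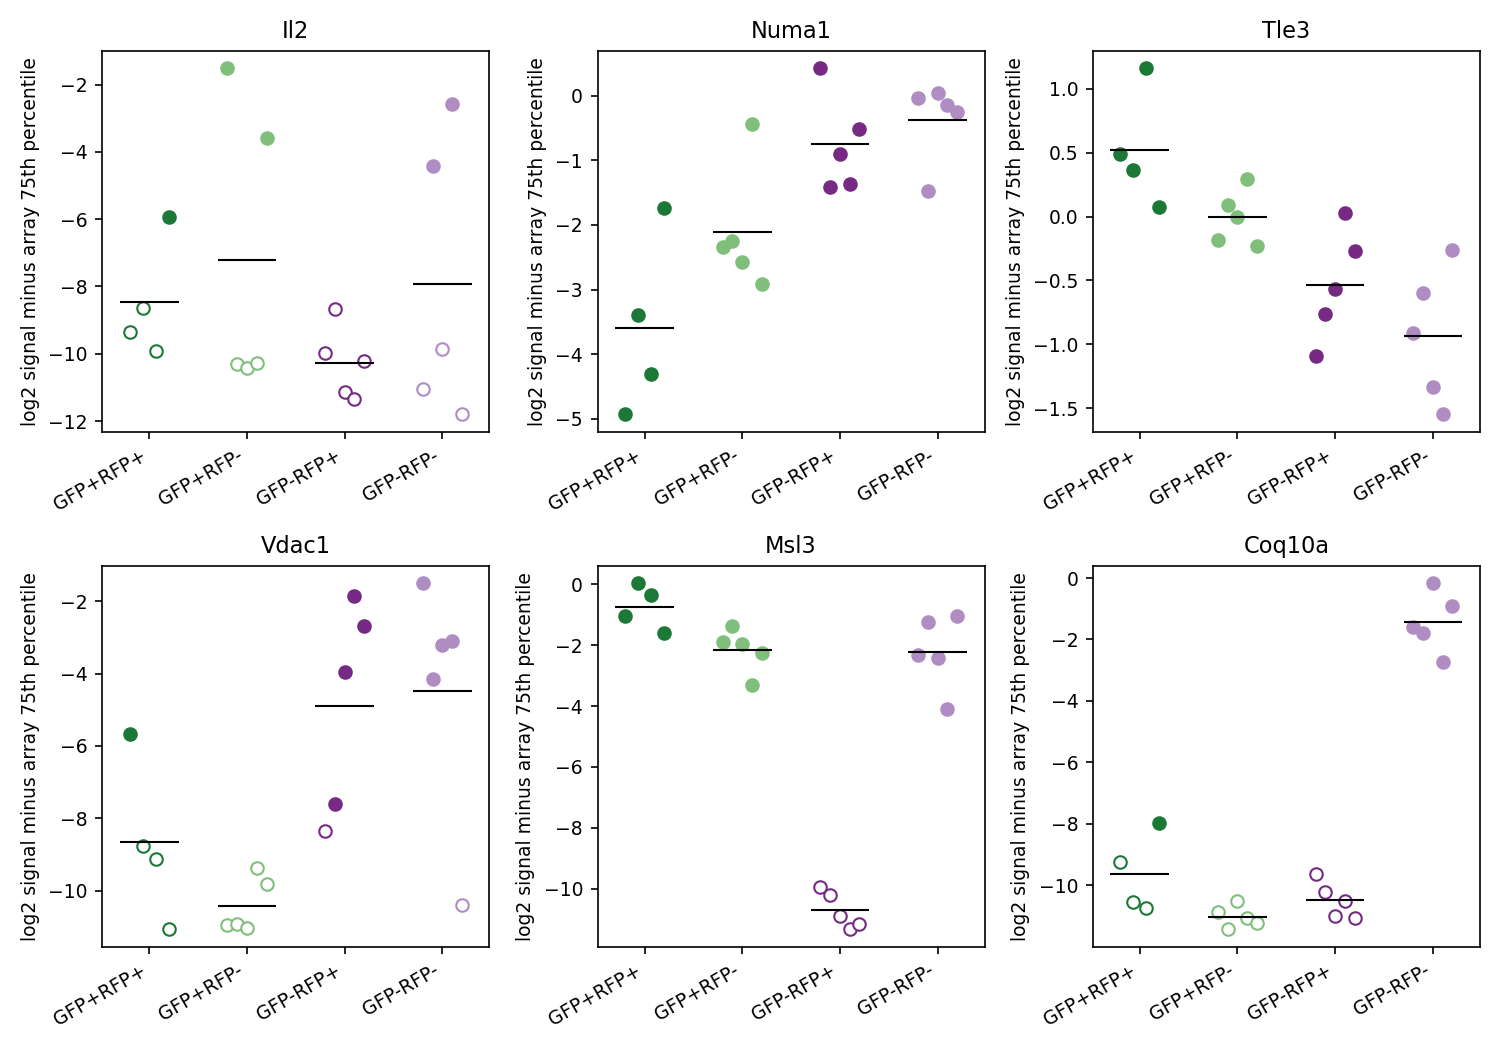
Levels of 6 named genes (y axis, log2 signal minus the array's 75th percentile, a scale of its own in each panel) on every array of the 4 populations (x axis); filled circles are well above background, open circles are not, and bars are population means. Il2 overlaps throughout, Numa1, Tle3 and Vdac1 have means that differ in the same direction in both lineages with some overlap, and Msl3 and Coq10a differ within a single lineage.

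The machinery of Il2 transcription had no called member. Of 28 regulators of the Il2 promoter tested, 11 had positive and 17 negative differences, none called, with a median of -0.40 against 0.19 over all genes (12687 positive, 7933 negative). Rel, the NF-kappaB subunit that is limiting for Il2, was well above background on 4 of 9 GFP+ arrays and 0 of 10 GFP- arrays. This puts GFP+ at least 1.05-fold higher (limma adjusted p = 0.869), but Rel passed the detection filter through GFP+ arrays alone. It was the 1 regulator of 28 with a positive difference at an unadjusted p under 0.05, near the 3.34% of all genes. Ikzf2, encoding Helios, differed by 3.08 ± 1.53 (SE; 1.46 with its second probe). The NFAT genes Nfatc1 (0.01), Nfatc2 (1.74) and Nfatc3 (-0.48) scattered around 0 with intervals that included it. Jun (-0.45, 95% interval -1.11 to 0.20) and Ets1 (-0.29, -1.01 to 0.43), both well above background on every array, were bounded more closely.

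Signalling upstream of these factors had none either. Of 30 genes of calcium and T cell receptor signalling, 20 differed upward and 10 downward, with a median of 0.49 and 1 at an unadjusted p under 0.05 in each direction. These were Calm3, a calmodulin gene (3.12 ± 1.17 SE, detected on 9 of 9 GFP+ and 7 of 10 GFP- arrays, but -0.12 with its second probe), and Itpr2, an inositol trisphosphate receptor above background on 0 of 9 GFP+ and 4 of 10 GFP- arrays. Itpr2 passed the detection filter through GFP- arrays alone, and its GFP- mean was at least 3.45-fold higher. The 21 early response genes of the receptor had a median of -0.52, with 8 positive and 13 negative. Cd69, an early activation antigen that holds T cells in tissue, differed by -3.46 ± 1.52 (SE), detected on 2 of 9 GFP+ and 6 of 10 GFP- arrays. Tnfrsf9, a costimulatory receptor, was well above background on every array and differed by 0.28 (95% interval -0.21 to 0.77). No gene of either list was called (limma adjusted p 0.869 for the named members with the smallest p).

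T cell cytokines, Il2 among them, gave 9 positive and 5 negative differences among 14 tested, with a median of 0.51. Tnfsf11, which encodes RANKL, had levels of -10.9 to -1.75 in GFP+ cells (7 of 9 arrays above background) and -12.0 to -3.19 in GFP- cells (2 of 10). The difference was 3.85 ± 1.40 (SE; limma adjusted p = 0.869). Il9, a mast cell and T cell growth factor, differed by 1.78 ± 0.60 (SE). Ifng (0.48 ± 1.63) and Tnf (-1.70 ± 2.12) were too variable to bound. Of 21 genes of the IL-2 receptor and its STAT5 response, 8 differed upward and 13 downward, with a median of -0.20 and 0 at an unadjusted p under 0.05. Il2rb, the signalling beta chain, was detected on all arrays and differed by 0.98 ± 0.64 (SE), while Il2ra, the high-affinity alpha chain, was detected on 3 of 9 GFP+ and 2 of 10 GFP- arrays (1.63 ± 1.33). Tnfrsf18, encoding GITR, differed by -2.10 ± 1.15. Cish, a STAT5 target that restrains the pathway, differed by -1.71 with an interval of -5.57 to 2.15.

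Among genes of naive and recirculating T cells most differences over both lineages together were negative. By lineage, the list's median was -1.40 in RFP- cells and 0.49 in RFP+ cells, against -0.02 and 0.41 over all genes. Of 17 tested, 4 had positive and 13 negative differences (median -0.56), none called, and 2 had an unadjusted p under 0.05, both negative, against 1.72% of all genes. Klf2, a transcription factor of quiescent T cells that maintains S1pr1 transcription, was among them and had medians of -0.86 in GFP+ and 0.48 in GFP- cells (-2.20 ± 0.98 SE). Tcf7 (0.39 ± 0.56) and Lef1 (1.43 ± 1.15), transcription factors of the same state, differed in the positive direction. The 23 genes of effector and memory cells had a median of 0.28, with 15 positive and 8 negative. Anxa2, a membrane-binding annexin detected on 4 of 9 GFP+ and 0 of 10 GFP- arrays, was at least 2.07-fold higher, and Emp3 differed by -2.72 ± 1.36. Anxa2 passed the detection filter through GFP+ arrays alone.

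Genes of follicular helper cells, the T cells that help B cells in germinal centres, held 3 of 14 members with a positive difference at an unadjusted p under 0.05, against 3.34% of all genes. The list had a median of 0.70, with 9 positive and 5 negative, and 0 called. Tox, a nuclear factor of chronically stimulated and follicular helper cells, was well above background on 9 of 9 GFP+ arrays (-4.58 to -1.40) and on 5 of 10 GFP- arrays (-11.1 to -0.59). Its difference was 4.23 ± 1.40 (SE; limma adjusted p = 0.869; 1.72 with its second probe). Tox2 differed by 3.18 ± 1.11 and Pou2af1, a coactivator of octamer factors, by 3.97 ± 1.35. The master regulator Bcl6 (0.80 ± 1.52) and the homing receptor Cxcr5 (0.64 ± 2.06) had wide intervals that included 0.

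Inhibitory and regulatory genes were mixed. The 16 genes of co-inhibition and anergy had a median of 0.52, with 11 positive and 5 negative. Izumo1r, encoding folate receptor 4, which marks regulatory and anergic CD4 cells, had medians of 0.38 in GFP+ and -4.96 in GFP- cells (4.00 ± 1.35 SE; limma adjusted p = 0.869). Dgkz, which dampens diacylglycerol signalling, differed by -1.74 ± 0.73, with -0.175 in RFP- and -3.49 in RFP+ cells (interaction limma adjusted p = 0.999). The Treg signature, of which Izumo1r is also a member, had 14 positive and 7 negative differences among 21 and a median of 0.47. Ctla4 differed by 1.74 ± 1.44 and Nt5e, the ecto-enzyme CD73, by 2.45 ± 1.22. Th1, Th2 and Th17 genes had medians of 0.33 (10 tested), -0.10 (6) and -0.03 (4). Their members with the smallest p were Cxcr3 (2.80 ± 1.91) and Eomes (1.27 ± 1.29, but -0.48 with its second probe) for Th1, Gata3 (1.15 ± 0.92) and Il4ra (-0.34 ± 0.34, but 0.43 with its second probe) for Th2, and Il22 (-0.18 ± 0.26) and Rora (-1.01) for Th17.

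No gene of proliferation, interferon response or survival passed the test. Cell cycle genes had 10 positive and 10 negative differences (median 0.11). Mki67, the proliferation antigen, differed by 3.66 ± 1.94 (SE; 2.13 with its second probe). Ccna2, encoding cyclin A2, was detected on 4 of 9 GFP+ and 0 of 10 GFP- arrays, at least 1.72-fold higher, and passed the detection filter through GFP+ arrays alone. Interferon-response genes split into 7 and 7 (median 0.21), with Xaf1 at 3.15 ± 1.12 and Ifit2 at -3.78 ± 1.24. Apoptosis regulators had 7 positive and 11 negative differences (median -0.42). Traf1, an adaptor of TNF receptors, was above background on 9 of 9 GFP+ and 8 of 10 GFP- arrays (2.99 ± 1.35). Bak1, a death effector of the mitochondrial membrane, differed by -1.64 ± 0.97. That value averages 0.63 in RFP- and -4.19 in RFP+ cells (interaction limma adjusted p = 0.999).

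**Figure D4:**
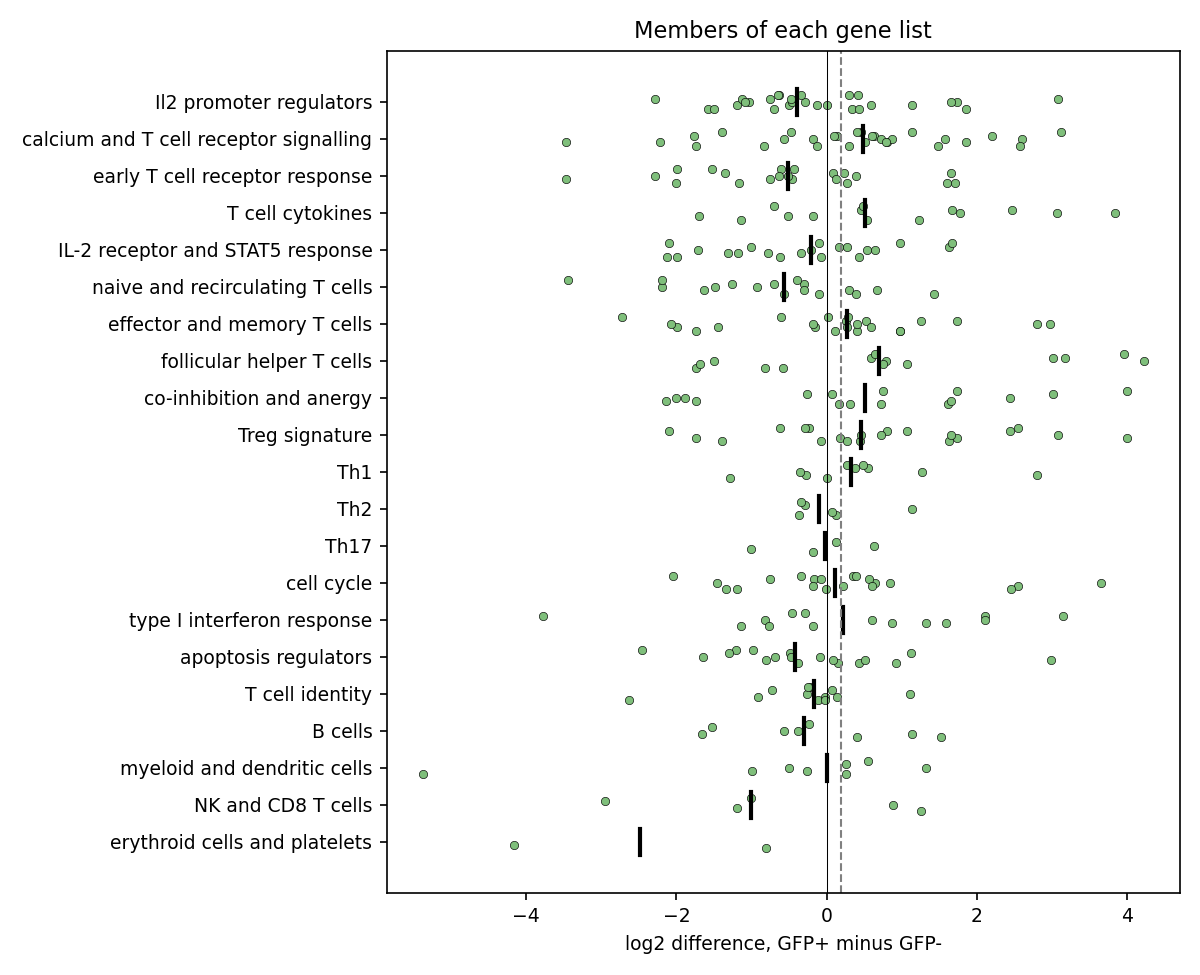
Log2 differences (GFP+ minus GFP-, x axis) of the members of 21 gene lists (rows); each circle is a gene, the black bar is the list's median, the dashed line marks the median of all genes, 0.19, and the thin line 0. Each list with 10 or more genes spreads over both sides of 0.

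No marker of T cell identity was called, and most lay well above background on all arrays. The 12 markers had a median difference of -0.17, and their summed signal was 11.8 to 21.8 (median 14.6) on GFP+ and 13.9 to 25.4 (median 15.4) on GFP- arrays, in multiples of the 75th percentile. The differences of Thy1 (-0.02, 95% interval -0.60 to 0.55), Lat (0.07, -0.67 to 0.81) and Cd3g (-0.11, -0.82 to 0.61) were the most closely bounded, and Cd4 differed by -0.02 (-1.38 to 1.34). Cd2, an adhesion receptor, differed by -2.63 ± 1.47 (SE; -0.40 with its second probe). Cd3d differed by -0.72 ± 0.47, with 0.34 in RFP- and -1.92 in RFP+ cells (interaction limma adjusted p = 0.999).

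Markers of other cells were measured beside these results. The B cell markers that passed the detection filter (8 of 10, without Ms4a1 and Ighm) summed to 1.43 to 4.31 on GFP+ and 0.0184 to 3.56 on GFP- arrays, and Cd79b and H2-Eb1 differed by -1.52 ± 1.07 and -1.65 ± 1.11 (SE). The myeloid and dendritic markers (8 of 10, S100a8 among them, without Itgax and Adgre1) summed to 8.79 to 31.8 (median 12.6) on GFP+ and 9.87 to 24.1 (median 12.2) on GFP- arrays. The brightest probe of Itgam, the integrin alpha M chain of myeloid cells, enters this sum. That probe was bright on every array, 3.48 ± 0.72 (SD, n = 9) in GFP+ and 3.28 ± 0.75 (SD, n = 10) in GFP- cells. Its second probe was above background on only 7 of 9 GFP+ and 6 of 10 GFP- arrays (difference 1.75). Another Itgam probe was above background on 1 of 9 and 2 of 10, so the probes disagree on how widely Itgam was detected. The NK and CD8 markers (5 of 8, without Cd8a, Cd8b1 and Gzma) summed to 0.0626 to 1.43 (median 0.472) on GFP+ and 0.331 to 3.45 (median 1.37) on GFP- arrays. Nkg7, a cytotoxic granule protein, differed by -2.95 ± 1.08 and Klrb1c by 1.26 ± 0.70 (SE). Of 8 erythroid and platelet markers only the haemoglobin genes Hbb-bs (-4.16 ± 1.25) and Hba-a1 (-0.80 ± 1.54) passed the filter. None of these markers was called, and their part in the other differences was not tested.

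Sign and size of the GFP difference were then compared between lineages. It had the same sign in RFP- and RFP+ cells for 11109 genes (53.9%), and across genes, which are not independent replicates, the differences of both lineages correlated at Pearson r = 0.03 and Spearman rho = 0.03. In 7397 genes (35.9%) both were positive and in 3712 (18%) both negative. Within RFP- cells limma called 2 genes (0.0097%), with 1060 (5.14%) at an unadjusted p under 0.05, and within RFP+ cells 1 (0.00485%), with 1114 (5.4%). The interaction of GFP with RFP called 2 genes (0.0097%), with 1014 (4.92%) at an unadjusted p under 0.05. Arl5c is named because it was called, after its values were seen.

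The genes called within a lineage were nearly all-or-none. Msl3 exceeded background on each of the 4 GFP+RFP+ arrays (-0.73 ± 0.73, SD) and on none of the 5 GFP-RFP+ arrays (-10.7 ± 0.61), at least 258-fold higher (limma adjusted p = 1.62e-07), while in RFP- cells, where all 10 arrays detected it, the GFP difference was 0.06 (interaction 9.91 ± 0.83 SE; adjusted p = 1.3e-05). Coq10a, a coenzyme Q-binding mitochondrial protein, was detected on none of the 5 GFP+RFP- arrays (-11.0 ± 0.35, SD) and on each of the 5 GFP-RFP- arrays (-1.43 ± 0.97), at least 188-fold lower (limma adjusted p = 8.78e-08), with a difference of 0.86 in RFP+ cells (interaction 10.46 ± 0.82 SE; adjusted p = 8.6e-06). Arl5c, an ARF-like small GTPase, had the same pattern of detection as Coq10a in RFP- cells and was at least 19.8-fold lower there (limma adjusted p = 0.0197), but its interaction did not pass (adjusted p = 0.457). For Msl3 and Coq10a the main effect is an average over lineages that differ.

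**Figure D5:**
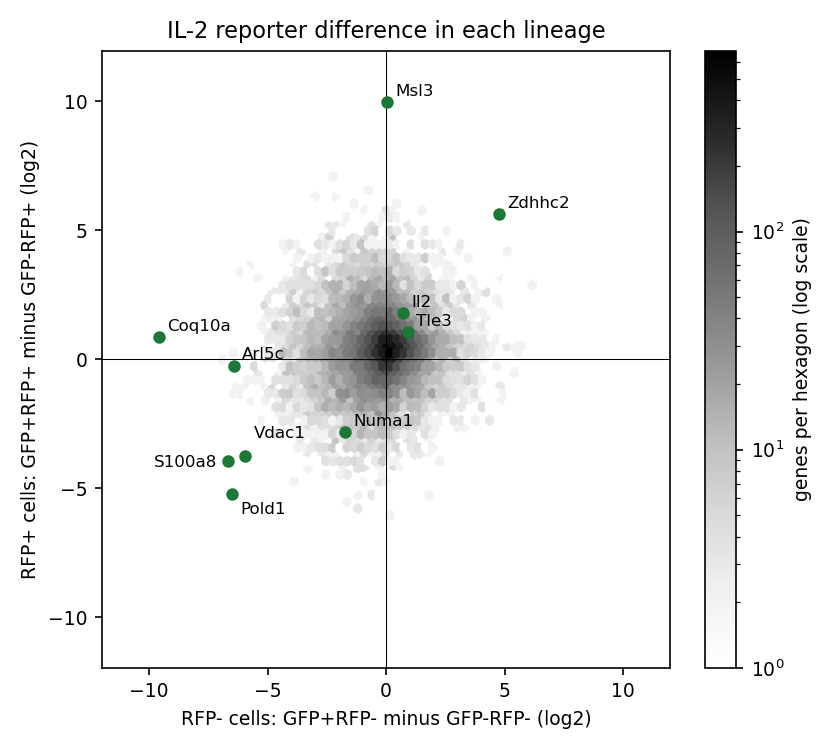
Log2 GFP+ minus GFP- difference in RFP- cells (x axis) and RFP+ cells (y axis) for 20620 genes, shaded by the number of genes per hexagon on a log scale, with 10 genes marked. Zdhhc2 lies far out in both lineages (4.74 and 5.63), whereas Msl3 (9.97 in RFP+ cells) and Coq10a (-9.60 in RFP- cells) lie along a single axis.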

How the data were processed

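RNA of 19 sorted CD4 T cell samples was amplified as cDNA by global PCR, labelled with Cy3 and hybridized to whole mouse genome arrays, per the labels' protocols. The authors deposited scanner output as linear intensity values, which the file headers credit to Agilent Feature Extraction 10.7.3.1; background had been subtracted on each array, with no scaling across arrays. The authors also deposited a matrix of log2 values, normalized by a method that no source used here states, which served as an alternative only. Column medians there are 3.21 to 3.226, and correlation with log2 scanner values is 0.949 to 1, so the scale and direction are known and the centring is not. Sample titles gave the groups. The design text gives 5 replicates for each population, and 4 GFP+RFP+ arrays were used.

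Each array has 62976 spots, 3671 of them controls, and 55681 probes. Over all arrays 3296 outlier spots were left out. Probes were named through RefSeq accessions (27235) or by the files (28446), with mm9 positions from the files. Values are log2 processed signal minus the array's 75th percentile over 6612 probes that all arrays detected (well above background). A probe had to be detected on 4 or more arrays, which kept 28101, and the brightest probe stood for each of 20620 genes, 11691 with a usual symbol. An additive limma model of GFP and RFP gave the difference (limma 3.58.1, R 4.3.3, data.table version 1.17.8), and a model of the 4 population means gave the lineage differences and the interaction, each with Benjamini-Hochberg adjusted p-values over all genes and a threshold of 0.05. Values of whole arrays and of Il2 were tested by exact permutation of GFP labels within RFP state (31752 permutations). Code was tested on simulated data. Named are Il2 and Foxp3, the 10 genes per direction with the smallest p and a usual symbol, and up to 2 members per list, plus members that show how a list varies, chosen after their values were seen. Some genes that this rule names are not reported here. The members and 21 lists were chosen with earlier results of these data known. Same-numbered samples did not deviate together (27 pairs, r = -0.0742 to 0.0934), so the numbers were not taken to pair samples. The number of arrays limits the precision. Figures used Python 3.11.15, pandas 2.3.3, numpy 2.4.6 and matplotlib 3.10.9.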

Additional observations from a re-analysis of the deposited data

Results flagged for a closer look

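An array far from the rest of its reporter state was found in 5 of 50 sets examined, and chance alone gives about 1 in 20. Foxp3 on GFP-RFP+ replicate 3 was at 0.25, above the other GFP- arrays. Erich6b on GFP+RFP- replicate 5 was at -11.38 and Nfix on the same array at -3.84, the first below and the second above the other GFP+ arrays. On GFP+RFP+ replicate 1, Vdac1 was at -5.67 and Actrt2 at -9.28, both above the other GFP+ arrays. The Erich6b and Actrt2 values were not above background on those arrays, so they are floor levels. The Foxp3, Nfix and Vdac1 values were above background. For 2 genes the GFP difference depended on lineage by the limma interaction: RFP+ minus RFP- cells gave 9.91 for Msl3 and 10.46 for Coq10a.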

How the results depend on the processing

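Of 24 other settings for the IL-2 reporter effect, 20 also called 0 genes. Normexp background correction with quantile normalization and the mean of a gene's probes each called 1 gene (Zdhhc2), averaging the effect equally over lineages called 2 (Msl3 and Coq10a), and dropping the 3 arrays that detected under 30% of probes called 1, a transcript with no usual symbol that was lower in GFP+ cells. Leaving out each array in turn gave 0 to 1 called genes, the 1 being Zdhhc2 without GFP-RFP+ replicate 3. Genes at an unadjusted p under 0.05 numbered 1042 of 20620 in the main fit. Out of the same total there were 681 without the RFP covariate, 1627 with array weights and 185 with limma's treat at a log2 threshold of 1. Other totals apply with no detection filter (2047 of 35019) and with probes detected on all 19 arrays (366 of 5799). The replicate block called 0 genes (1199 at an unadjusted p under 0.05), and 6 of 19 samples correlated best with their own number. The interaction called 2 genes with the replicate block, 0 with probes detected on all arrays, a filter that Msl3 and Coq10a do not pass, and 2 to 13 on leaving out each array, 13 without GFP-RFP+ replicate 3. Msl3 and Coq10a kept their interaction in all 23 settings where they were tested (9.17 to 10.4 and 9.03 to 10.8). The median over all genes was 0.19 and moved to 0.05 with a common floor, 0.09 with quantile normalization, 0.05 with normexp and quantile normalization, 0.31 with no filter, -0.02 within slide 2 and 0.01 without the 3 dim arrays. The difference in percent detected ran from -1.84 to 0.282 on leaving out each array, positive without GFP+RFP- replicate 4 (0.282) and without GFP-RFP+ replicate 3 (0.181). Of 1291 values of the 61 named genes under other settings, 15 turned sign, and the cause was not tested: within slide 1 Il2rb (-0.054), Eomes (-0.12) and Hba-a1 (1.40); within slide 2 Il2 (-4.95) and Foxp3 (0.46); within slide 3 Cd69 (3.46), Tnfrsf18 (1.99), Cxcr3 (-0.91), Gata3 (-1.55), Xaf1 (-0.46), Cd2 (0.46), H2-Eb1 (0.12) and Nkg7 (0.052); with the mean of probes Ggps1 (0.27) and Il4ra (0.045). On leaving out each array Foxp3 ran from -0.57 to 0.42 and Hba-a1 from -1.89 to 0.027. Many genes are near background on part of the arrays, and their log2 differences there depend on the floor.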
